A study of Mus musculus with 4 samples.

Results

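The genes described here are 7 mouse genes that thymocytes use to find, hold and leave their niches: the chemokine receptor genes Cxcr4, Ccr9 and Ccr7, the egress receptor gene S1pr1, the transcription factor gene Klf2 and the adhesion genes Itga4 and Cd44. They were chosen by name, with earlier results of these data known. All 7 of 7 were found among the 21887 protein-coding genes of the RefSeq annotation of mm10 (GRCm38.p6). Dimethylation of histone H3 at lysine 79 (H3K79me2) was mapped by chromatin immunoprecipitation and sequencing (ChIP-seq) in C57BL/6 double-negative thymocytes. The cells had been derived in vitro from haematopoietic stem cells on OP9-DL1 stroma, which presents a Notch ligand, fed with IL-7 (2 ng/mL) and Flt-3L (5 ng/mL), and collected at the DN3 stage. The control group received the vehicle DMSO and the inhibitor group A939572, which inhibits SCD1 (a stearoyl-CoA desaturase), while they developed. Each condition had 1 ChIP library, so there was no replicate error and no p-value for a difference. Fewer cells carrying the mark and less of it per cell cannot be told apart in such bulk samples. The pair of matching inputs was not analysed here. Cells from a stromal co-culture stand in for thymocytes, and they had not met the thymic vessels, cortex or medulla between which these receptors act.

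As background, chemokine receptors are coupled to G proteins and steer cells along ligand gradients. CXCR4 binds CXCL12 of the thymic cortex and holds early thymocytes there, CCR9 binds CCL25, and CCR7 binds CCL19 and CCL21. CCR9 and CCR7 bring progenitors into the thymus, and CCR7 later draws selected cells into the medulla. S1PR1 senses sphingosine-1-phosphate (S1P) in blood and drives mature thymocytes out, and KLF2 is the factor that turns on S1pr1 in those cells. Integrin α4, the product of Itga4, binds VCAM-1, and CD44 binds hyaluronan and is lost from the surface before the DN3 stage. H3K79me2 is written by DOT1L along the beginning of transcribed genes.

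The values are the authors' broad peaks, called for each library by itself. Each has a fold enrichment over background and a −log10 q, both means over the peak. Peaks were ranked within their own list, but the same cut-offs on q and fold were applied to both lists. Whether that background was the input or the ChIP library itself is not given in the sources used here. Peaks with q of at most 0.05 are named strong and all others weak, and genes with 50% or more of the body under peaks are named marked. The control list held 124954 peaks on the chromosomes used, of which 803 were strong, and the inhibitor list 35010, of which 6527 were strong. The lists hold no read numbers, and the depth is unknown. Its part in comparisons of strong peaks between the lists was therefore not tested. Of 18 DN3 thymocyte markers, 11 were marked in the control and 15 with inhibitor, although Ptcra (18.1% and 47.1%), Zap70 (6.84% and 0%) and Cd5 (23.3% and 19.6%) were marked in neither. Of 6 genes of later CD4 and CD8 stages, 0 were marked in either list, and Cd8a, Foxp3 and Zbtb7b were at 0% in both. Themis was covered over 41.3% and 23.9% by weak peaks. Weak control peaks covered Cd4 over 7.69% and Cd8b1 over 5.79%, and both were at 0% with inhibitor. Feeder layer markers gave 0 and 1 of 12 marked, with 0 to 11.8% covered in the control list and 0 to 59.0% in the inhibitor list, and Pdgfra, Col1a1, Col3a1, Cxcl12 and Sparc were at 0% in both. Thbs1 (11.8% and 59.0%, of which strong inhibitor peaks made up 45.1% of the gene) and Pdgfrb (9.18% and 45.3%, with 44.2% by strong inhibitor peaks) were the feeder markers with strong peaks. B cell markers gave 0 and 1 of 8, myeloid markers 0 and 2 of 9, and innate lymphoid markers 2 and 3 of 8. Of all coding genes, 5.47% and 26.1% were marked. Strong inhibitor peaks covered the B cell marker Blk over 70.6% and the myeloid markers Cd68 and Fcer1g over 100% and 84.5%. They covered the innate lymphoid markers Nkg7, Id2 and Zbtb16 over 100%, 99.9% and 50.8%. In the control list weak peaks covered Nkg7 over 78.9%, Id2 over 84.6% and Zbtb16 over 19.2%. Klrb1c and Klrd1 of the same list went the other way, from 40.2% and 35.1% by weak control peaks to 0% with inhibitor. The part of other cells in the results was not tested.

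The 7 genes fell into different patterns. Cxcr4 and Itga4 carried strong peaks in both libraries. Ccr9 and Klf2 carried weak peaks of similar extent in both, and Cd44 a scatter of short weak peaks. Ccr7 had weak peaks with inhibitor but no control peak, and S1pr1 had a weak control peak but no inhibitor peak. Thus 5 of the 7 patterns rest on weak peaks alone.

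With all peaks, 3 of 7 members were marked in the control list (Cxcr4, S1pr1 and Itga4), against 5.47% of all coding genes. In the inhibitor list 5 of 7 were marked (Cxcr4, Ccr9, Ccr7, Klf2 and Itga4), against 26.1%. With strong peaks alone, 1 of 7 was marked in the control list (Cxcr4), against 1.33%, and 2 of 7 in the inhibitor list (Cxcr4 and Itga4), against 19.6%. Cxcr4 and Itga4 were marked in both lists with all peaks, as were 4.36% of coding genes. Some covered base was found at 6 of 7 members in either list, against 55.3% of coding genes in the control and 51.4% with inhibitor. A strong peak touched 2 of 7 in either list, against 3.92% and 34.7%. Coverage was higher with inhibitor by 25 points or more at 2 of 7 members (Ccr7 and Itga4), against 30.1% of coding genes, and higher in the control by as much at 1 of 7 (S1pr1), against 3.07%. With strong peaks alone these counts were 1 of 7 (Itga4), against 26.3%, and 0 of 7, against 0%. With so few members these shares are a description. The 5 members shorter than 20 kb belong to a class in which 5.87% of genes were marked in the control and 24.9% with inhibitor, so short genes as such were marked at close to the overall rates. With strong peaks the shares in that class were 1.54% and 20.8%.

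**Figure D1:**
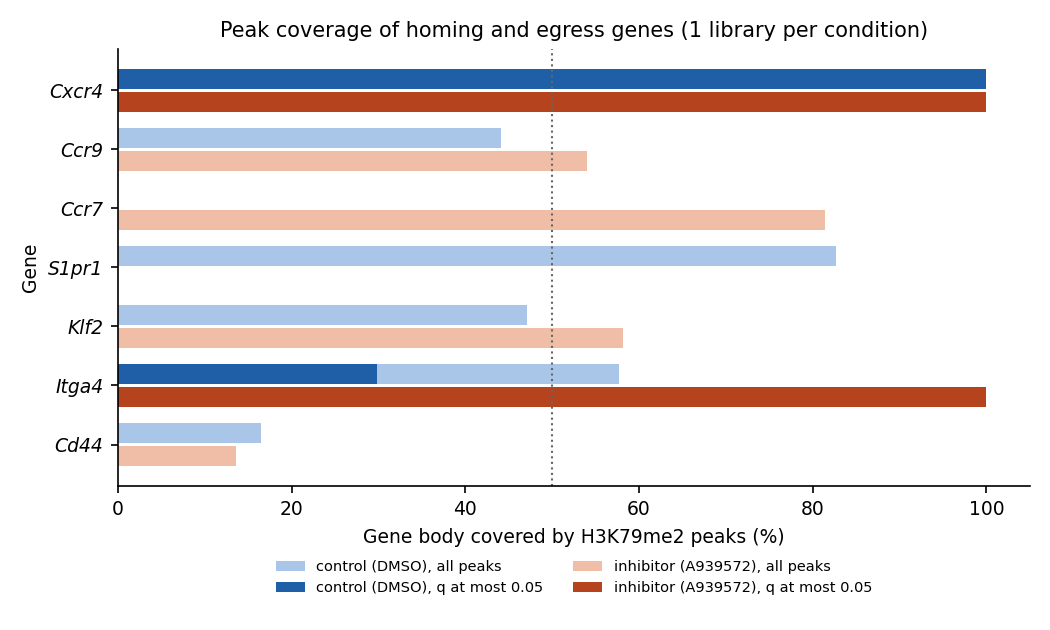
Percent of each gene body covered by H3K79me2 peaks (horizontal axis) for the 7 genes (vertical axis) in the control (blue) and inhibitor (orange) library; dark parts are covered by peaks with q at most 0.05, and the dotted line marks 50%. Cxcr4 is filled in both libraries by strong peaks, Itga4 goes from 57.7% to 100%, Ccr7 has a bar for the inhibitor alone (81.5%) and S1pr1 for the control alone (82.7%).

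Cxcr4 (chr1:128588199-128592299, minus strand) was covered over 100% of its 4.10 kb by a strong peak in both libraries. The control peak spanned 5.48 kb (chr1:128586846-128592321) at a fold of 2.68 and −log10 q of 4.73, and 99.8% of the peaks of its list had a lower fold. The inhibitor peak spanned 11.2 kb (chr1:128583262-128594493), with a fold of 4.09 and a −log10 q of 15.6, above 98.3% of its list. Both peaks thus lay at the upper end of their own lists, and both took in the whole gene. Full coverage by strong peaks in both lists was found for 23 coding genes, 0.105% of all and 0.186% of those under 20 kb. With all peaks it was found for 50, or 0.228%. The peaks differed in reach: the control peak began 22 bp before the gene and ran 1.35 kb past its end, whereas the inhibitor peak began 2.19 kb before it and ran 4.94 kb past. When only peaks with −log10 q of at least 5, or with a fold of at least 3, were kept, the control peak was lost and the inhibitor peak kept, so Cxcr4 then differed by 100 points.

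Promoters were matched in the RefSeq promoter table (GRCm38.p6) for 5 of the 7 members; Ccr7 and S1pr1 were not matched. The 250 bases before the start are shown for 4 of them. At Cxcr4 and Itga4 strong peaks reached into this window, and at Klf2 and Ccr9 the peaks of both lists began after it. The peaks at Cd44, whose window is not shown, also began after it. Capitals mark, on either strand, CACCC (the core bound by KLF factors), GTAAACA (FOXO factors), TGTGGT (RUNX factors), CAGCTG (E proteins) and GGGCGG (the GC box of SP factors). Sequences run 5′ to 3′ along the gene.
Cxcr4, chr1:128592300-128592549, minus strand: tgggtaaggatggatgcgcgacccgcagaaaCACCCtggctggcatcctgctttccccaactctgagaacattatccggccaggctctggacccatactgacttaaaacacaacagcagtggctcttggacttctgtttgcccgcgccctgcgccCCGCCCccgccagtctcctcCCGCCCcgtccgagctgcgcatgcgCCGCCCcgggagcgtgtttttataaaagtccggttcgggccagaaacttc
Itga4, chr2:79255176-79255425, plus strand: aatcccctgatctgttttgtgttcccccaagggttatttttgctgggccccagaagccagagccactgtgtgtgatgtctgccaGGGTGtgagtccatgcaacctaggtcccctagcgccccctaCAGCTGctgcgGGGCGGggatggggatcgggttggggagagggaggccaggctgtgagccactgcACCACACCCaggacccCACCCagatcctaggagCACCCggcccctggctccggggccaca
Klf2, chr8:72318812-72319061, plus strand: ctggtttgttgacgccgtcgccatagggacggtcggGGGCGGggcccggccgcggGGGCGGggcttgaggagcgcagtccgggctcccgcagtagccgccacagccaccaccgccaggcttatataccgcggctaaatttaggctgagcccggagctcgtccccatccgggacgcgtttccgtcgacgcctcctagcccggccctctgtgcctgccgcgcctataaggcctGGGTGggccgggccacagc
Ccr9, chr9:123766961-123767210, plus strand: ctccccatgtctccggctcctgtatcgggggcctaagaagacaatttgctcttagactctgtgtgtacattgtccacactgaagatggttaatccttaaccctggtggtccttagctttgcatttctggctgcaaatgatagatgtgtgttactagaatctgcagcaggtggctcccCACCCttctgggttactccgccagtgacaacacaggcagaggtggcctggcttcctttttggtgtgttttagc

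Peaks covered 8.80% of the Cxcr4 window in the control and 100% with inhibitor, and 100% of the Itga4 window in both, all by strong peaks. At Klf2, Ccr9 and Cd44 the window was covered over 0% in both lists. The Itga4 window held 4 matches to CACCC, 1 to TGTGGT at -60 to -55 from the start, which overlaps a CACCC at -56 to -52, 1 to CAGCTG and 1 to GGGCGG. Cxcr4 had 3 matches to GGGCGG and 1 to CACCC, Klf2 2 and 1, and Ccr9 1 to CACCC, whereas Cd44 held none of the 5 motifs. Among 17492 coding gene promoters of the same length, 53.2% held CACCC, 42.7% GGGCGG, 12.5% TGTGGT, 11.6% CAGCTG and 2.58% GTAAACA, which none of the 5 members held. The windows also differed in base composition: GC content was 71.2% at Klf2, 64.0% at Itga4, 61.2% at Cxcr4, 56.4% at Cd44 and 50.4% at Ccr9, against a median of 55.2%. CpG counts ran from 29 at Klf2 and 19 at Cxcr4 to 6 at Itga4, 5 at Cd44 and 3 at Ccr9, against a median of 10. Matches to these letters describe the sequence and say nothing of binding.

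Ccr9 (chr9:123767211-123783457, plus strand, 16.2 kb) was covered over 44.1% in the control and 54.1% with inhibitor, on either side of the 50% threshold but only 9.96 points apart. Each list held 1 peak there, and both were weak. The control peak (7.16 kb, chr9:123767521-123774684) had a fold of 1.69 and a −log10 q of 0.118. The inhibitor peak (8.78 kb, chr9:123767400-123776181) had a fold of 1.74 and a −log10 q of 0.571. They began 310 and 189 bp after the 5′ end and ended 7.47 and 8.97 kb into the gene, so both lists placed a weak peak over the same first part of Ccr9. All control bases within the gene lay inside the inhibitor peak, and the first 5 kb were covered over 93.8% and 96.2%.

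Ccr7 (chr11:99144199-99155077, 10.9 kb) was covered over 0% in the control and 81.5% with inhibitor. The inhibitor list held 2 peaks there, of 5.68 kb (chr11:99141496-99147178; fold 1.67, −log10 q 0.267) and 7.49 kb (chr11:99149194-99156682; fold 1.96, −log10 q 1.10). The q of the second was 0.0796, so neither was strong. The nearest control peak lay 16.5 kb from the gene. A coding gene marked in the inhibitor list with no control peak was no rare case: 1036 genes, 4.73% of all and 8.27% of those under 20 kb, had this pattern. With strong peaks alone Ccr7 was at 0% in both lists, and the nearest strong peaks lay 68.5 kb away in the control list and 54.3 kb away in the inhibitor list.

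S1pr1 (chr3:115710433-115715055, 4.62 kb) showed the opposite order, with 82.7% covered in the control and 0% with inhibitor. The control peak (3.82 kb, chr3:115710538-115714361) lay wholly within the gene. Its fold of 1.54 was above that of 7.65% of the control list alone, and its −log10 q was 0.0123, a q of 0.972. In width it stood higher, above 90.9% of its list. The call at S1pr1 thus rested on a peak near the bottom of its list in enrichment. The nearest inhibitor peak lay 169.7 kb from the gene. Marked in the control list with no inhibitor peak were 215 coding genes, 0.982% of all and 1.71% of those under 20 kb. With strong peaks alone S1pr1 was at 0% in both lists.

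Klf2 (chr8:72319062-72321654, plus strand, 2.59 kb) was covered over 47.1% in the control and 58.1% with inhibitor, again astride the threshold and 10.99 points apart. Each list held 1 weak peak there. The control peak spanned 1.62 kb (chr8:72320433-72322055), with a fold of 2.097 and a −log10 q of 0.640. The inhibitor peak spanned 1.51 kb (chr8:72319609-72321115), with a fold of 1.99 and a −log10 q of 0.979, a q of 0.105. In fold the control peak exceeded 98.5% of its list and the inhibitor peak 77.9% of its own. Both began inside the gene, 1371 and 547 bp from the 5′ end, and 26.3% of the gene was covered in both. With 1 kb added on both sides of the gene the order turned, to 35.3% in the control and 32.8% with inhibitor, so no direction can be given for Klf2.

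Itga4 (chr2:79255426-79333114, plus strand, 77.7 kb) was covered over 57.7% in the control and 100% with inhibitor, a difference of 42.3 points. Of 5 control peaks, 1 was strong. It spanned 27.8 kb (chr2:79250778-79278561), began 4.65 kb before the gene and ended 23.1 kb into it, with a fold of 3.95 and a −log10 q of 12.05, above 99.96% of its list in fold. The other 4 control peaks, 1.15 to 13.9 kb wide, followed downstream, and the last of them ended 65.1 kb from the 5′ end. In the inhibitor list 1 strong peak of 107 kb (chr2:79227224-79333857) held the whole gene, with a fold of 3.78 and a −log10 q of 10.9, and began 28.2 kb before it. In fold that peak stood above 97.3% of its own list. The first 5 kb from the 5′ end were covered over 100% in both lists, a difference of 0 points. With strong peaks alone the covered percent was 29.8% and 100%. Full coverage by strong inhibitor peaks was found for 6.64% of coding genes and for 1.76% of those of at least 50 kb. Itga4 shares 624 bp, or 0.803% of its body, with Cerkl, and the inhibitor peak overlapped both genes.

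Cd44 (chr2:102811141-102901669, minus strand, 90.5 kb) was lightly covered in both lists, over 16.4% in the control and 13.6% with inhibitor. It held 11 control peaks of 456 to 2582 bp with folds of 1.53 to 1.91, and 8 inhibitor peaks of 408 to 3808 bp with folds of 1.49 to 1.95. All were weak, with −log10 q of at most 0.0832 in the control and 0.566 with inhibitor. Few positions were shared: 2.73% of the gene was covered in both lists, which is 16.6% of the control bases and 20% of the inhibitor bases. Among coding genes of at least 50 kb, the class of Cd44 and Itga4, 4.69% were marked in the control and 24.8% with inhibitor, and 0.768% and 15% by strong peaks. Near the 5′ end the order differed from that of the whole gene: the first 5 kb were covered over 14.9% in the control and 69.5% with inhibitor, a difference of 54.7 points that rests on a weak peak of 3.81 kb with a −log10 q of 0.0395.

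**Figure D2:**
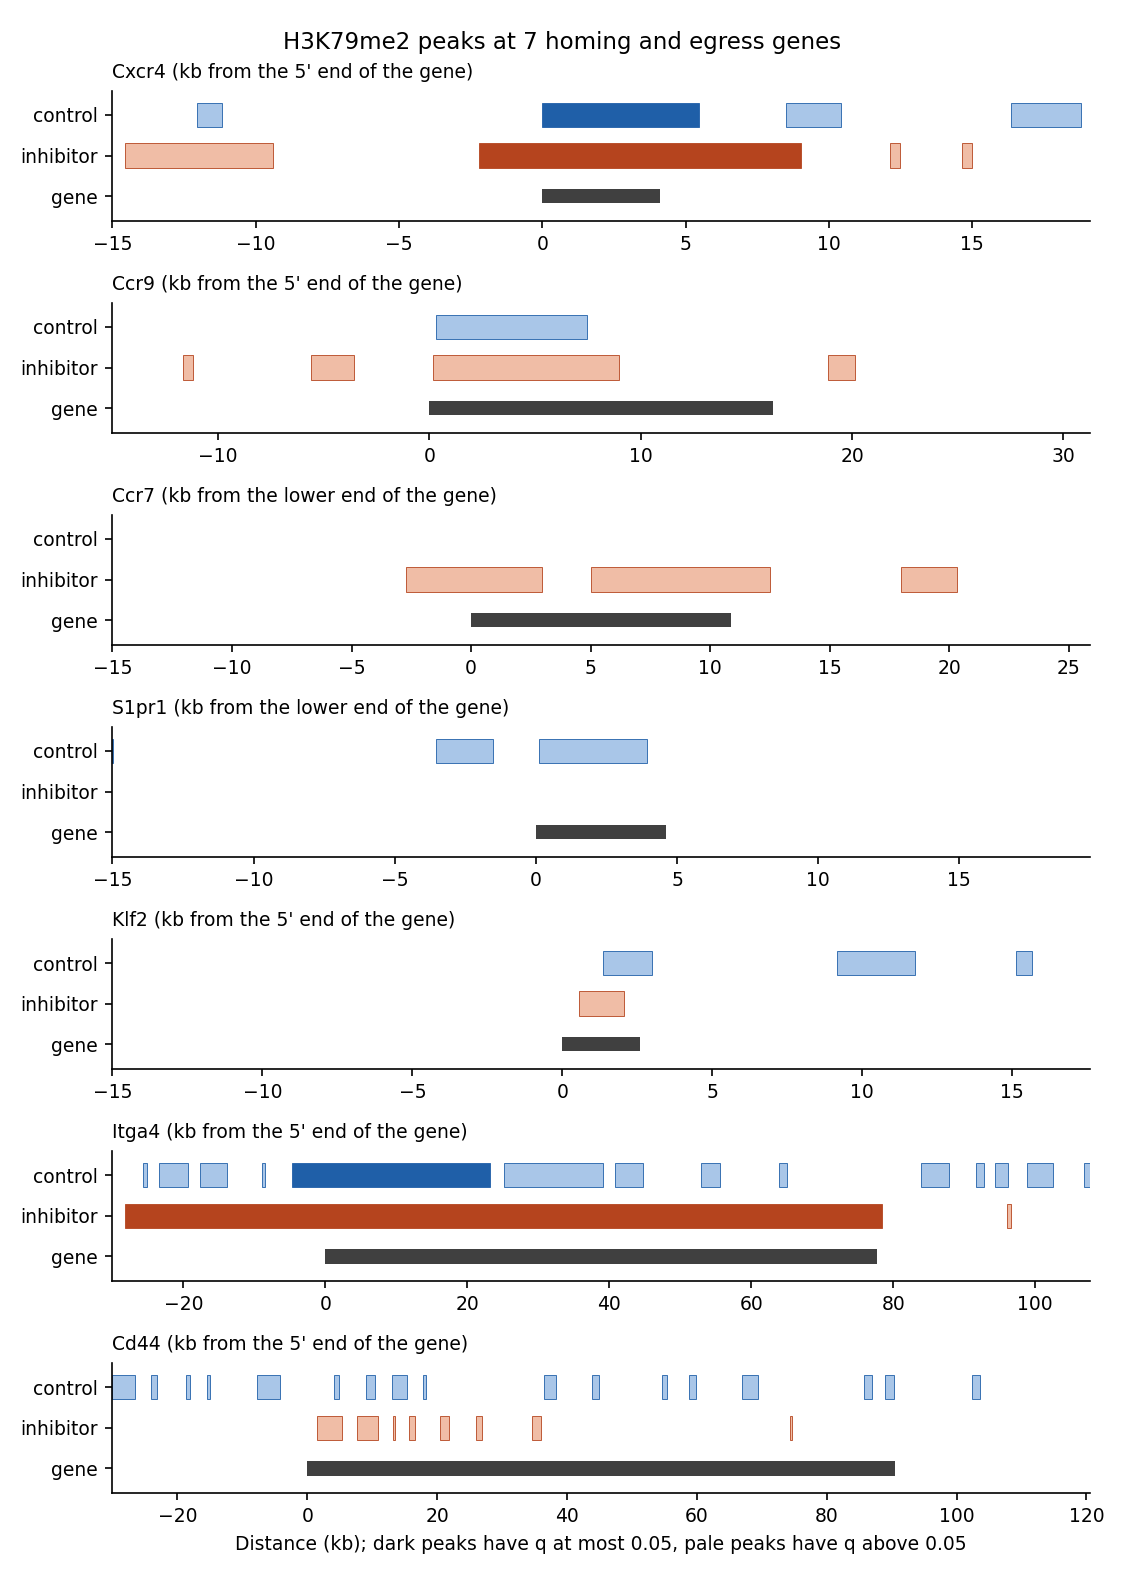
Peaks around the 7 genes by distance in kb (horizontal axis) from the 5′ end of the gene, or from its end at the lower coordinate for Ccr7 and S1pr1; rows give the control peaks (blue), the inhibitor peaks (orange) and the gene body (grey), and dark peaks have q at most 0.05. Strong peaks lie over Cxcr4 and Itga4, where the inhibitor peak spans 107 kb, and the control row of Ccr7 and the inhibitor row of S1pr1 are empty over the gene.

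In all, the members held 20 control peaks and 14 inhibitor peaks, of which 2 in each list were strong. The strong peaks had folds of 2.68 to 4.09, and the weak ones stayed at or under 2.097. Width did not separate them as clearly. The strong control peak at Cxcr4 (5.48 kb) was narrower than the weak control peaks at Ccr9 (7.16 kb) and in the middle of Itga4 (13.9 kb).

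**Figure D3:**
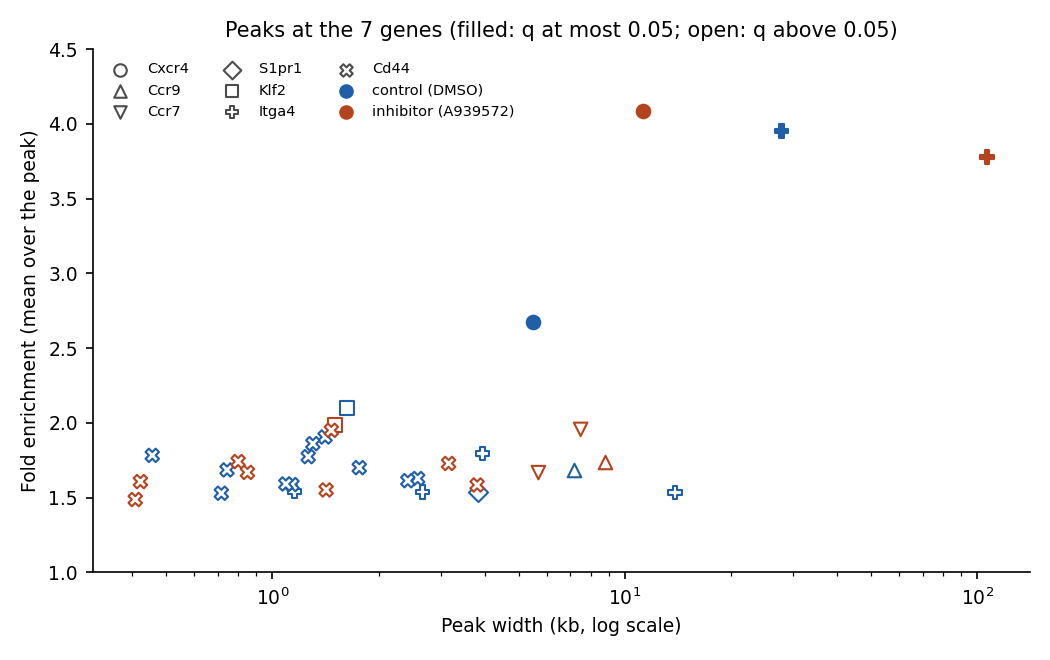
Fold enrichment (vertical axis, mean over the peak) against peak width in kb (horizontal axis, log scale) for the 20 control peaks (blue) and 14 inhibitor peaks (orange) at the 7 genes, with a symbol for each gene and filled symbols for q at most 0.05. The 4 filled symbols, at Cxcr4 and Itga4, lie between folds of 2.68 and 4.09, and the open ones at or under 2.097.

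Coverage along the gene could be set out for the 5 members whose strand the promoter table gives. At Itga4 the control list covered 100%, 89.3%, 35.4% and 5.94% of 4 equal segments from the 5′ end, and the inhibitor list 100% of each. At Ccr9 the control values were 92.4%, 84.0%, 0% and 0%, and the inhibitor values 95.3%, 100%, 20.9% and 0%. Both genes were thus covered most at the 5′ end in the control list, but at Itga4 alone of these did the inhibitor list reach the last segment. The mean over 17492 coding genes went from 16.3% in the first segment to 7.65% in the last in the control list, and from 36.0% to 17.9% in the inhibitor list. Cd44 had 21.7%, 12.6%, 12.6% and 18.8% in the control list, with both ends above the middle, and 42.9%, 9.80%, 0% and 1.80% in the inhibitor list. Klf2 departed from the mean profile: its first segment was covered over 0% and 15.6%, and the one after the middle over 88.4% and 100%. Klf2 is so short that a segment is under 1 kb.

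**Figure D4:**
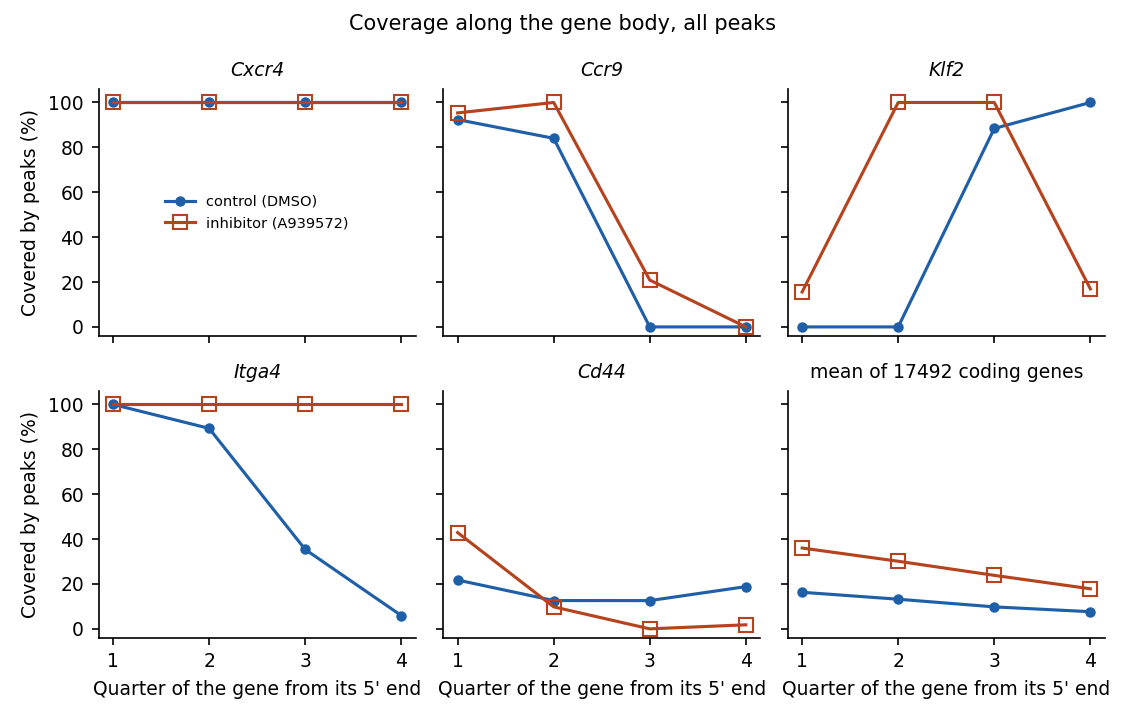
Percent covered by peaks (vertical axis) in 4 equal segments of the gene from its 5′ end (horizontal axis) in the control (blue circles) and inhibitor (orange squares) list, for 5 members and as the mean of 17492 coding genes. At Itga4 the control line drops from 100% to 5.94% while the inhibitor line stays at 100%, and at Klf2 the first segment is covered over 0% and 15.6%.

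Another 86 genes of thymocyte migration were listed by role, also with earlier results of these data known. Of these, 22 were marked in the control and 53 with inhibitor, against 5.47% and 26.1% of all coding genes. By strong peaks 12 and 42 were marked, against 1.33% and 19.6%. Coverage was higher with inhibitor by 25 points or more at 40 genes, against 30.1%, and higher in the control by as much at 2, against 3.07% (Cxcr2, a receptor of neutrophils, 30.5% and 0%, and Itga2, a collagen receptor subunit, 38.5% and 0%, both by weak peaks). The median difference was 22.1 points over the 86 genes, 9.96 points over the 7 members and 0 points over all coding genes. Among the members, S1pr1 (-82.7 points) and Cd44 (-2.81) were lower with inhibitor and Cxcr4 did not differ. The median difference by strong peaks was 28.2 points over the 86 genes and 0 points over the members and over all coding genes.

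Of 15 other chemokine receptor genes, 6 held no peak in either list, as did 7097 of the 21887 coding genes. With all peaks 1 was marked in the control list, Ccr2 (96.9% by weak peaks, against 86.4% by strong inhibitor peaks), which was named after its value was seen, and 4 in the inhibitor list, against 5.47% and 26.1% of all coding genes. Cxcr5, the receptor that leads cells into B cell follicles, was covered over 17.1% and 100%, and its body overlaps a further coding gene. Ccr4, a receptor of thymocytes on their way to the medulla, was covered over 24.0% and 52.6%, by a strong peak in the inhibitor list. Of the 15, 0 held a strong control peak, against 3.92% of all coding genes, and 3 were marked by strong inhibitor peaks, against 19.6%, so these counts were close to the background. Of 7 chemokine ligand genes 0 were marked in either list, and Cxcl12, Ccl19 and Ccl21a, ligands of CXCR4 and CCR7, held no peak at all. Ccl25, the ligand of CCR9, was covered over 2.36% and 19.5%, and strong inhibitor peaks covered 16.8%.

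Among 11 genes of the S1P axis, 2 were marked in the control and 7 with inhibitor, against 5.47% and 26.1% of all coding genes. Of the relatives of S1pr1, several had the opposite order: S1pr2 was covered over 0% and 94.97%, S1pr3 over 9.19% and 90.5% and S1pr4, a lymphocyte receptor, over 78.5% and 100%, each by strong peaks in the inhibitor list. S1pr5 held no peak in either list. Cd69, whose product pulls S1PR1 from the cell surface, was covered over 39.0% and 100%, and its inhibitor peak had a −log10 q of 17.1. Grk2, the kinase that desensitises S1PR1, was covered over 68.8% and 100% by strong peaks. Spns2, the S1P exporter, was covered over 0% and 77.1% by weak peaks, and it overlaps another coding gene. So S1pr1 itself was bare in the inhibitor list, whereas 6 of these 11 genes were marked there by strong peaks, against 19.6% of all coding genes. The order at S1pr1 rests on a weak control peak with a q of 0.972, and by strong peaks S1pr1 was at 0% in both lists.

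Of 19 integrin, selectin and ligand genes, 2 were marked in the control and 14 with inhibitor, against 5.47% and 26.1% of all coding genes. Partners of integrin α4 were covered by weak control peaks and mainly by strong inhibitor peaks: Itgb1 over 38.5% and 54.7%, and Itgb7 over 16.4% and 68.6%. Selplg, the P-selectin ligand that progenitors use to enter the thymus, was covered over 74.2% and 100%, and Cd47 over 94.2% and 100%. Spn, which encodes CD43, was covered over 13.1% and 81.5%, Itga5 over 0% and 62.1%, and Icam1 over 0% and 56.3%, the last by weak peaks. Vcam1 and Madcam1, ligands of integrin α4 on other cells, were at 4.25% and 0% in the control and held no inhibitor peak.

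Of 10 transcription factor genes, 5 were marked in the control and 8 with inhibitor, against 5.47% and 26.1% of all coding genes. Of the relatives of Klf2, Klf6 was covered over 90.1% and 100% and Klf3, which overlaps another coding gene, over 57.5% and 95.1%, with strong peaks in both lists. Klf4 was covered over 30.6% and 100% by weak peaks. Ikzf1, which encodes Ikaros, was covered over 77.4% and 100% with strong peaks in both lists. Foxo3 was covered over 45.2% and 100%, with strong inhibitor peaks throughout, and Bach2 over 20.0% and 68.3%, of which strong inhibitor peaks made up 37.2% of the gene. Of 24 genes for signals and cytoskeleton, 12 and 20 were marked, against the same background. Rgs1, a brake on chemokine receptors, and Rhoh, a small GTPase of blood cells, were covered over 100% in both lists by strong peaks, as Cxcr4 was, and Rap1b, an integrin activator, over 96.1% and 100%. Rasgrp2 was covered over 0% and 75.1%, Stk4, which encodes the egress kinase MST1, over 21.4% and 94.2%, and Arhgef1 over 8.81% and 79.1%.

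**Figure D5:**
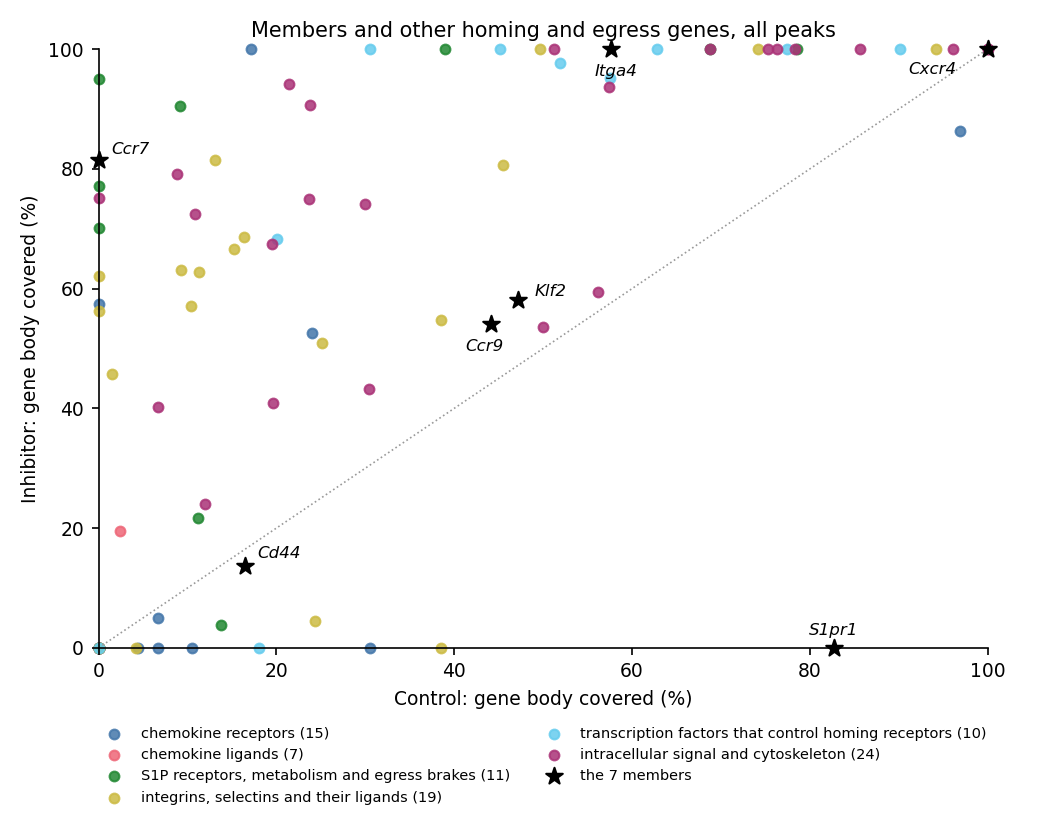
Gene body covered by all peaks in the inhibitor list (vertical axis, percent) against the control list (horizontal axis, percent) for the 86 other migration genes, coloured by role, and the 7 members (stars); the dotted line marks equal coverage. Most genes with coverage lie above the line, Cxcr4 sits at 100% in both, and S1pr1 lies far to the lower right at 82.7% and 0%.

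Likeness between a member and the 86 genes was measured as the Euclidean distance over 4 values, the covered percent in both libraries with all peaks and with strong peaks. Cxcr4 was at a distance of 0 points from Rgs1 and Rhoh. Ccr7 was nearest to Spns2 (4.34 points), Cd44 to Sgpl1, the S1P lyase gene (9.67), and Itga4 to Gnai2, a G protein subunit of chemokine receptors (12.3). Ccr9 and Klf2 had no near match, with Gng2 as the closest at 39.8 and 39.5 points. S1pr1 was the most apart, with Itga2 as the closest at 44.2 points.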

How the data were processed

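The members and gene lists were chosen with earlier results of these data known. The deposited values are broad peak lists, 1 per ChIP library. Per the submitters' processing notes, the tools were BWA and MACS2 2.1.0 and the build mm10; their roles and options are not stated there. In the authors' columns each peak has a fold enrichment (a ratio to a background that is not stated), a −log10 p and a −log10 q, and a deposited score that is the whole part of 10 times −log10 q and was not used. Both lists reach down to a −log10 p of 1.00.

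Overlapping peaks on chromosomes 1 to 19, X and Y were merged and intersected with RefSeq gene bodies of GRCm38.p6 with scipy 1.17.1, pandas 2.3.3 and numpy 2.4.6 under Python 3.11.15, and the coverage function was tested on simulated data. The gene table gives no strand. It was taken from the RefSeq promoter table, which covers 17492 of 21887 coding genes. With 1 library per condition no test was run: differences of at least 25 points were counted beside the share of all coding genes. As alternatives, peaks were limited to q of at most 0.05, to −log10 q from 5 or to folds from 3; further ones were lists of equal covered length, merging within 1 kb, the first or better covered 5 kb, 1 kb added on both sides, thresholds of any base or 80%, and counts without genes that overlap another coding gene. Shares by gene length and by 4 segments of the gene were added after seeing the data. Named were all members, their neighbours, and per role up to 3 genes in each direction with the largest difference of at least 25 points and up to 3 with the highest control coverage by strong peaks. Some genes that this rule names are not reported here. Other genes in the text were chosen after their values were seen.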

Additional observations from a re-analysis of the deposited data

How the results depend on the processing

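No paired analysis was possible because each condition had 1 ChIP library, and no library was left out for the same reason. Of 154 values recomputed under an alternative, 104 stayed on their side of the 25-point threshold or, for counts, within 1.5 times. Among these, 2 differences below the threshold turned sign: Klf2 to -2.53 points with 1 kb added on both sides, and Cd44 to 16.1 points at the better covered 5 kb end. Trimming the control list by q until both lists covered equal length, and merging peaks within 1 kb changed no member's value. Trimming could not move much, because the lists covered 234.7 Mb (control) and 233.6 Mb (inhibitor) before it. Merging also left the counts over all coding genes unchanged. Values under both alternatives are among the 104, so that count says little about robustness to them.

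Filters on peak strength moved many values. With q of at most 0.05, −log10 q of at least 5 or fold of at least 3, the differences at Ccr7 and S1pr1 were 0 points each, since their peaks are weak. Cxcr4 differed by 100 points under the last 2 of these, because its control peak was removed. Under these 3 filters in order, marked members numbered 1, 0 and 0 in the control and 2, 2 and 2 with inhibitor. Pathway genes marked in the control list numbered 12, 7 and 6, those marked in the inhibitor list 28 under the second and 26 under the third, and those higher in the control list 0 each time. Of all coding genes, 292, 122 and 101 were marked in the control, 2412 and 2323 with inhibitor under the last 2, 2880 and 2818 were higher in the inhibitor list, and 0, 1 and 2 were higher in the control list.

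The window moved others. Over the first 5 kb, which gave no value for Ccr7 and S1pr1, Itga4 differed by 0 points and Cd44 turned to 54.7 points in favour of the inhibitor list. There 26 pathway genes were higher in the inhibitor list, as were 5832 of the 17492 coding genes with a strand. Of the latter, 2279 were marked in the control list. Genes without a strand are left out of these counts, so they cannot be set directly against the main counts. At the better covered 5 kb end in each list Itga4 differed by 0 points, 5 members and 3166 coding genes were marked in the control, and 1457 coding genes were higher in the control list. With 1 kb added on both sides, 3 members were marked with inhibitor and 3 without it, so the main contrast of 5 against 3 was lost. Coding genes marked under that setting numbered 5515 with inhibitor and 979 without it.

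Thresholds moved the counts too. With any covered base 6 members were marked in the control list, as were 63 pathway genes and 12110 coding genes, and 11257 coding genes were marked with inhibitor. At 80% of the gene body 3 members were marked with inhibitor, 7 pathway genes in the control against 31 with inhibitor, and 326 coding genes against 3241. The read depth is unknown, so how far it limits the weak peaks was not tested.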

Other observations

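The genes on either side of the members had coverage of their own. Next to Ccr7, Smarce1, a chromatin remodelling subunit gene 54.0 kb away, was covered over 30.6% in the control and 98.3% with inhibitor, all by strong peaks, and Tns4 on the other side over 8.60% and 0%. Next to Klf2, Eps15l1, an endocytic adaptor gene 19.3 kb away, was covered over 26.3% and 59.0%, and Ap1m1, a clathrin adaptor subunit gene, over 2.22% and 52.9%, with strong peaks in the inhibitor list alone. Next to Cxcr4, Dars, the aspartyl-tRNA synthetase gene 171 kb away, was covered over 25.4% and 100%, whereas Thsd7b was covered over 3.30% and 0%. Thus both neighbours of Klf2 and 1 of those of Ccr7 and Cxcr4 each had strong inhibitor peaks. Neighbours of Ccr9, S1pr1 and Itga4 had such peaks too, as had 34.7% of all coding genes.

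S1pr1 lay far from its neighbours. The nearest coding genes were Dph5, a diphthamide synthesis gene 173 kb away (4.73% and 43.2%), and Olfm3, 585 kb away (32.0% and 0%). Strong inhibitor peaks covered 14.9% of Dph5. At Ccr9, Fyco1 was covered over 19.7% and 16.6% and Lztfl1 over 18.9% and 21.6%. Strong inhibitor peaks covered 12.9% of Fyco1 and 21.6% of Lztfl1. At Itga4, Ube2e3, an E2 ubiquitin-conjugating enzyme gene 327 kb away, was covered over 50.7% and 87.9%, Cerkl over 21.6% and 3.57%, and Neurod1 over 10.9% and 0%. Strong inhibitor peaks covered 87.9% of Ube2e3 and 1.42% of Cerkl, the latter by the end of the peak that holds Itga4. At Cd44, Pdhx was covered over 10.4% and 41.7% by weak peaks and Slc1a2 over 7.63% and 0%.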
